A study of Mus musculus with 4 samples.

Results

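The regions described here are 1956 isolated stretches of 3 kb directly upstream of moderately expressed genes in the mouse testis, out of 30166 upstream regions that were counted on both strands. They were chosen by the expression of the gene they precede, taken as a mean of 100 to under 1000 raw reads over the 2 WT libraries, and by position. Each lies on chromosomes 1 to 19 and has no gene inside it or within 10 kb beyond its outer edge. The WT reads of the own gene (the gene that the region precedes) were thus used for the choice, while reads in the upstream regions were not. Testes of control mice (genotype Dis3 WT, 2 libraries) were compared with testes of Dis3 conditional knockout mice (KO, 2 libraries), all B6D2F1 and all at postnatal day 17. The sources used here name neither the Cre driver nor the animals behind each library, so p-values measure only the spread between these libraries, which may be technical. In whole testes, fewer cells of a type and less RNA per cell cannot be told apart.

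Active promoters usually fire in both directions. RNA made upstream on the strand opposite to the gene (promoter upstream transcripts) is as a rule short, ends early and is degraded in the nucleus by the RNA exosome, a complex whose catalytic subunits in the nucleus are DIS3 and EXOSC10. Loss of exosome activity is known from cultured cells to make such transcripts visible. The questions put to these regions are how many reads lie on the antisense strand (opposite to the gene) and on the sense strand (that of the gene), and whether either differs between KO and WT.

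The promoter stretch upstream of the RefSeq gene start is shown for 4 regions whose antisense reads either stood out in every library or differed between the genotypes. Bases are given 5′ to 3′ on the strand of the gene, from RefSeq promoters of build GRCm38.p6, limited to bases upstream of the gene as counted, with each CG dinucleotide in capitals because CG-rich promoters are compared with others further on.
Oxtr: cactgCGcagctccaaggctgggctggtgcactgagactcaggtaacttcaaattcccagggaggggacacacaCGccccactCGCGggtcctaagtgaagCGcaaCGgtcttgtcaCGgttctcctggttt
Ugt8a: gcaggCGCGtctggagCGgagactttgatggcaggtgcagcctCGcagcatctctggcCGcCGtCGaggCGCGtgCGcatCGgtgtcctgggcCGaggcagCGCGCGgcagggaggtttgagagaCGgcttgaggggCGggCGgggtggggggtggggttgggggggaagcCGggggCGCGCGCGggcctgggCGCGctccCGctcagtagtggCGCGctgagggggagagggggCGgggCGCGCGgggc
Papss1: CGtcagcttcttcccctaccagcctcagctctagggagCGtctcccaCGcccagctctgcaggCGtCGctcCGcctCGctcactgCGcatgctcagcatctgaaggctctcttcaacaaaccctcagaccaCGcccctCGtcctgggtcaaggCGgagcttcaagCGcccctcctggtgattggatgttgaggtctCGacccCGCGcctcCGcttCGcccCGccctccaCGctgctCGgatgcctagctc
Rgcc: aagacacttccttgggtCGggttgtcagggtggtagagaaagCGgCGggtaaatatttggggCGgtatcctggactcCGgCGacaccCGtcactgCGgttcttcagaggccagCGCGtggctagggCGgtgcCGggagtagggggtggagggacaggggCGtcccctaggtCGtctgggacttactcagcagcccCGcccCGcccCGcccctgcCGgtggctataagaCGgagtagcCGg
Oxtr encodes the oxytocin receptor, and its 132 bases at chr6:112489944-112490075 (minus strand) held 7 CG dinucleotides. Ugt8a encodes the galactosyltransferase that makes galactosylceramide, and its 250 bases at chr3:125938653-125938902 (minus strand) held 32 and begin 33 bases away from the gene as counted. Papss1 encodes an enzyme that makes the sulfate donor PAPS, and its 250 bases at chr3:131564518-131564767 (plus strand) held 20. Rgcc encodes a regulator of the cell cycle, and its 240 bases at chr14:79301646-79301885 (minus strand) also held 20. None of the 4 stretches held TATAAA on either strand. GGGCGG was present on at least 1 strand in those of Ugt8a, Papss1 and Rgcc, and these letters were not in the 132 bases of Oxtr.

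Both WT libraries were deeper (31031920 and 40329170 reads in the gene table) than both KO libraries (17663416 and 19255782). Dis3 itself, the targeted gene, stood at 80.0 and 80.4 CPM (reads scaled to library size) in WT and at 39.4 and 42.8 in KO (log2 fold change -0.96 ± 0.07 SE, adjusted p = 2.34e-09, edgeR's quasi-likelihood test). Of 30 markers of meiotic germ cells, 28 fell in KO and none of the others passed the test, where 20.3% of all 25076 genes tested fell and 11.6% rose. Their summed level was 8888 and 9161 CPM in WT against 6178 and 5994 in KO. Of 10 macrophage markers, 9 rose, and their sum went from 180 to 182 in WT up to 292 to 299 in KO. Sertoli cell markers rose in 6 of 16 cases and endothelial markers in 2 of 7. All 3 tested blood cell markers fell, from sums of 10.7 and 13.5 to 5.31 and 4.65. The part of these differences in cell markers in the upstream results was not tested.

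Among the 1956 regions, 1709 precede protein-coding genes, 138 precede processed pseudogenes (retrocopies of mRNAs), 70 precede lincRNA genes and 39 precede genes of other classes. The mean WT read count of the own genes ranged from 100 to 999.5, with a median of 358.5. The next gene beyond the outer edge was at least 10 kb away and 29.8 kb away at the median. In all, 1869 regions ended 1 base before their gene. A later annotation, GENCODE M21, places a gene within the excluded space of 22 regions, and 1934 stayed clear of it. Of the regions, 1331 matched a RefSeq promoter by symbol, and in 903 that promoter began within 50 bases of the gene start.

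Reads per region were few and only moderately above those of regions whose gene was silent (under 10 reads in WT; 9593 isolated regions). The interquartile mean, which is the mean after dropping a fraction of 0.25 of the regions at each end, was 11.8 and 12.2 antisense reads per region in WT and 12.5 and 14.2 in KO. Silent regions held 8.02 and 7.57 antisense reads in WT and 9.08 and 10.3 in KO. Raw reads per silent region were thus higher in the KO libraries, which have fewer gene reads. On the sense strand the described regions held 11.0 and 10.9 reads in WT and 11.1 and 12.9 in KO, over 8.11 and 7.44 (WT) and 9.07 and 10.1 (KO) in silent ones. On both strands the level exceeded that of silent regions in 4 of 4 libraries (exact sign-flip test over libraries, two-sided p = 0.125, the smallest it can give). The excess over silent regions was 3.45 to 4.59 antisense reads and 2.0 to 3.42 sense reads per region. Most reads in a typical region were thus at the level seen before silent genes of all classes pooled. Of the 9593 silent regions, however, only 1556 precede protein-coding genes. These held 6.79 and 6.21 antisense reads in WT and 7.79 and 9.03 in KO. The 1709 described regions of protein-coding genes held 12.1 and 12.5 in WT and 12.8 and 14.5 in KO. Within this class the silent level was a smaller part of the antisense reads in every library.

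**Figure D1:**
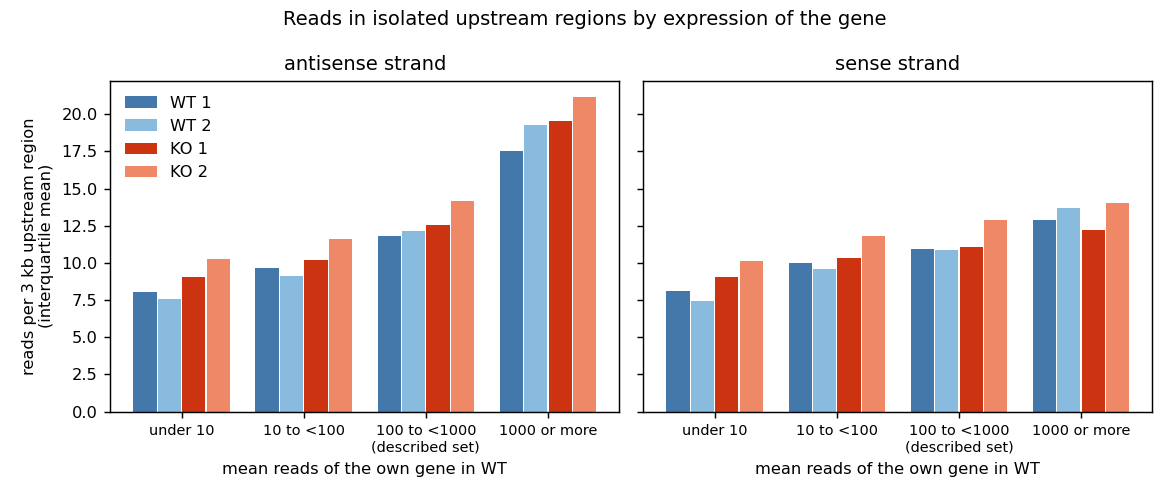
Bars give the interquartile mean of reads per 3 kb region (y axis, raw reads) for isolated regions grouped by the mean WT reads of their gene, with 1 bar per library and 1 panel per strand. Antisense bars of the described set stand at 11.8 to 14.2 reads, above the 7.57 to 10.3 of silent regions and below the 17.5 to 21.2 of regions before genes with 1000 or more reads.

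Regions with many reads were a minority. The 99th percentile of silent regions lay at 24 to 27 antisense reads and 23 to 25 sense reads. On the antisense strand, 182 and 212 of the 1956 regions exceeded it in WT and 228 and 236 in KO, or 9.30% to 12.1%. On the sense strand, 149 and 169 exceeded it in WT and 97 and 122 in KO. Antisense counts were thus higher and sense counts lower in both KO libraries than in both WT libraries (exact permutation test, two-sided p = 0.333 each, the smallest that 2 libraries against 2 allow). Above the percentile in all 4 libraries were 103 regions on the antisense strand and 65 on the sense strand, and 8 on both. The 103 were 71.5% of the regions above it in both WT libraries and 62.8% of those above it in both KO libraries. The 10 regions with most antisense reads held 20.9% and 24.1% of all antisense reads of the set in WT and 11.8% and 10.6% in KO. These shares are of raw reads as well, and the part of depth in them was not tested.

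Antisense reads outnumbered sense reads in a typical region. Scaled to 10000000 reads of the gene table (per 10M, on TMM-scaled library size), antisense minus sense was 0.29 and 0.34 reads per region in WT and 0.80 and 0.62 in KO, above 0 in 4 of 4 libraries (exact sign-flip test, p = 0.125). In silent regions the same difference lay between -0.03 and 0.05. Region by region, the strand ratio in WT was tested with edgeR within libraries. Of the 1933 regions with enough reads for the test, 136 (7.04%) had more antisense than sense reads at an adjusted p under 0.05, against 4.25% of all 26039 regions tested. In the other direction 86 (4.45%) had more sense than antisense reads, against 2.96% of all. The median log2 ratio of antisense to sense was 0.14 in the described regions, 0.02 over all tested regions, 0.00 before silent genes and 0.39 before genes with 1000 or more reads. Calls of antisense over sense made up 0.80% of silent regions and 18% of those before the most expressed genes.

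**Figure D2:**
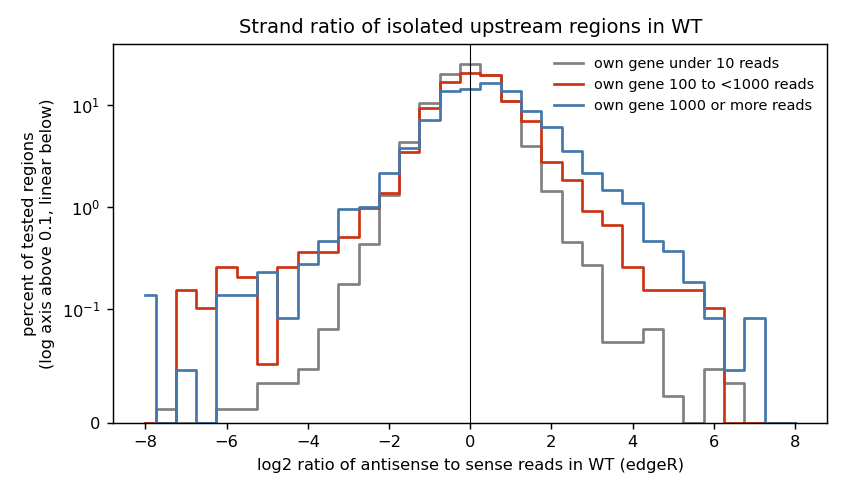
Lines give the percent of tested regions (y axis, logarithmic above 0.1 and linear below) in each bin of the log2 ratio of antisense to sense reads in WT (x axis) for 3 classes of isolated regions. The described regions (red) lie between silent regions (grey) and regions of highly expressed genes (blue) on the antisense side, with medians of 0.14, 0.00 and 0.39, and have a tail towards the sense strand as well.

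The share of regions with many reads on a strand differed between classes of the own gene. Before protein-coding genes, antisense minus sense was 0.45 and 0.47 reads per region per 10M in WT and 0.97 and 0.84 in KO. Before processed pseudogenes it was -1.98 and -1.36 in WT and -1.17 and -1.85 in KO, below 0 in every library. Among the 1709 regions of protein-coding genes, 91 exceeded the silent 99th percentile in all 4 libraries on the antisense strand and 28 on the sense strand. Among the 138 of processed pseudogenes the counts were 1 and 25. The 70 lincRNA regions had 6 and 8, and their strand difference lay between -0.55 and 0.50 with no common sign. Processed pseudogenes thus gave 25 of the 65 regions above the percentile on the sense strand and 1 of the 103 above it on the antisense strand. How far unannotated transcripts that run through a region add to either strand was not tested.

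Scaled to gene-table reads, the antisense excess over silent regions was higher in KO, while scaled to silent regions it was lower. It was 1.28 and 1.21 reads per region per 10M in WT (mean 1.25 ± 0.06 SD, n = 2) and 1.89 and 1.91 in KO (1.90 ± 0.02 SD, n = 2), a ratio of 1.52 at gene-table scaling. The groups did not overlap (exact permutation test, two-sided p = 0.333, the smallest possible). The sense excess was 0.96 and 0.90 in WT and 1.09 and 1.34 in KO (means 0.93 ± 0.05 and 1.22 ± 0.17 SD, n = 2 each), a ratio of 1.30 with the same exact permutation p = 0.333. Scaled to the reads of silent regions instead, both ratios turned, to 0.76 for antisense and 0.65 for sense. With the plain mean over regions, in which the few strongest regions weigh most, the sense ratio turned to 0.93 and the antisense ratio was 1.20. The ratio of antisense to sense excess was 1.33 and 1.34 in WT and 1.72 and 1.43 in KO, and antisense minus sense was 2.26 times as high in KO as in WT (exact permutation p = 0.333 for both). The first of these needs no scaling between libraries, and the second was 1.11 when scaled to silent regions. Set against the own genes, the antisense excess came to 11.8 and 11.1 reads per 1000 own-gene reads in WT and 17.6 and 18.03 in KO, a description because WT reads of these genes chose the regions. In raw reads, without scaling to depth, the excess was 3.81 and 4.59 in WT and 3.45 and 3.94 in KO, so the scaled difference depends on the library sizes used.

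At gene-table scaling, used from here on unless stated, the antisense excess was higher before more expressed genes. Before genes with 100 to under 200 WT reads (n = 549) it was 0.77 and 0.88 per 10M in WT and 1.19 and 1.02 in KO. With 200 to under 400 reads (n = 534) it was 1.33 and 1.15 in WT and 1.67 and 1.85 in KO. With 400 to under 1000 reads (n = 873) it reached 1.66 and 1.5 in WT and 2.68 and 2.74 in KO. The top tier exceeded the bottom tier in 4 of 4 libraries, and this gap was wider in both KO libraries (1.49 and 1.72) than in WT (0.89 and 0.62; exact permutation p = 0.333). As a percent of the silent level, the excess was 28.4% and 44.3% in the bottom tier and 61.2% and 75.6% in the top tier in WT, and 23.9% and 20.4% against 53.9% and 55.2% in KO. On that scale the gaps of WT and KO overlapped. The sense excess was higher in the top tier in 3 of 4 libraries, with 0.94 and 0.95 in the lowest tier and 0.94 and 1.0 in the highest in WT, and 0.84 and 1.16 against 1.28 and 1.44 in KO. In the lowest tier antisense minus sense had no common sign over libraries (-0.20 and -0.03 in WT, 0.36 and -0.10 in KO), while in the highest it was 0.69 and 0.54 in WT and 1.41 and 1.35 in KO. Regions before genes with 1000 or more reads continued the series, with an antisense excess of 3.20 and 3.09 in WT and 5.71 and 5.29 in KO. Within the set, gene class differed with expression as well. The median WT reads of the own gene were 200.5 for processed pseudogenes, 175.5 for lincRNA genes and 385.5 for protein-coding genes. The part of gene class in the differences between tiers was not tested.

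**Figure D3:**
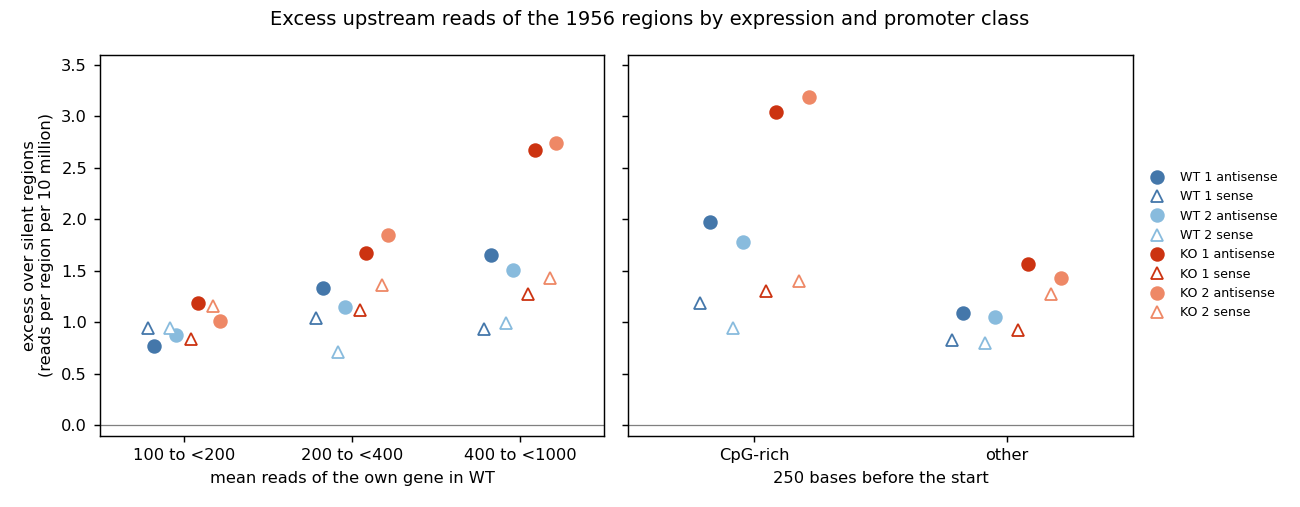
Points give the excess of reads per region over silent regions, per 10M gene-table reads (y axis), for each library, with filled circles for antisense and open triangles for sense. The left panel splits the 1956 regions by WT reads of the own gene and the right panel splits the 903 with a matched promoter by its class. At this scaling the KO antisense points of the top tier (2.68 and 2.74) and of CpG-rich promoters (3.04 and 3.19) stand apart from the rest.

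Promoter sequence divided the set as well. A promoter was called CpG-rich where its 250 upstream bases had an observed-to-expected CG ratio of at least 0.6 and at least 50% G and C. Of the 903 matched promoters 448 (49.6%) met this, against 1.87% before silent genes, 69.7% before genes with 1000 or more reads and 33.3% of all 7750 matched promoters. Before CpG-rich promoters the antisense excess was 1.97 and 1.78 in WT and 3.04 and 3.19 in KO, and before the 455 others it was 1.09 and 1.05 in WT and 1.57 and 1.43 in KO. As a percent of the silent level, the antisense excess before CpG-rich promoters was 72.9% and 89.3% in WT and 61.2% and 64.2% in KO. Before the others it was 40.2% and 52.8% in WT and 31.6% and 28.8% in KO. On that scale KO was thus lower in both classes. At gene-table scaling CpG-rich promoters were higher in 4 of 4 libraries (exact sign-flip test, p = 0.125). Their genes were also more expressed, at a median of 452 WT reads against 325. Among genes with 400 to under 1000 reads, where the medians were 662 and 633, the antisense excess was still higher before CpG-rich promoters, at 2.51 and 2.30 against 1.16 and 0.94 in WT and 4.16 and 4.24 against 1.87 and 1.73 in KO. Among genes with 100 to under 400 reads the gap was smaller (0.14 to 1.04 over the libraries). The sense excess differed less, at 1.19 and 0.95 against 0.83 and 0.80 in WT. Searched on both strands of the 250 bases, GGGCGG (the GC box) was found in 53.3% of the set's promoters, 6.26% of silent ones and 37.3% of all. TATAAA was found in 8.86%, 25.2% and 13.4%, and CCAAT in 35.8%, 37.5% and 36.9%. These matches describe letters and not bound sites.

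The antisense excess was lowest in regions with the next gene over 100 kb away. From the range of 20 to 50 kb on it fell with distance in every library, while regions at 10 to 20 kb were not the highest in every library. With the next gene 10 to 20 kb away (n = 632) the antisense excess was 1.25 and 1.31 in WT and 2.01 and 2.33 in KO. At 20 to 50 kb (n = 747) it was 1.52 and 1.38 in WT and 2.27 and 2.05 in KO. At 50 to 100 kb (n = 337) it was 1.23 and 1.02 in WT and 1.61 and 1.67 in KO. With the next gene over 100 kb away (n = 240) it was 0.84 and 0.72 in WT and 1.03 and 0.92 in KO, lower in every library. The own genes of these remote regions had a median of 301 WT reads against 350 for the near ones, and 43.8% against 48.9% of their matched promoters were CpG-rich. Gene class also differed with distance. The median distance was 58.4 kb for processed pseudogene regions, none with a matched promoter, and 28.4 kb for protein-coding ones. Their antisense excess was 0.03 and 0.27 against 1.38 and 1.29 in WT, and 0.39 and 0.33 against 2.01 and 2.06 in KO. The part of gene class in the fall with distance was not tested. Whether the next gene lay on the same or the opposite strand made little difference to the antisense excess, at 1.28 and 1.22 (same, n = 1013) and 1.28 and 1.18 (opposite, n = 941) in WT and 1.93 and 1.82 against 1.83 and 2.02 in KO.

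Tested region by region at gene-table scaling, antisense values of KO over WT lay above 0 in 93.1% of tested regions of the set and in 94.7% of tested silent regions. Of the 1956 regions 1610 had enough reads, and of these 132 (8.2%) rose and 3 fell (0.19%) at an adjusted p under 0.05 in edgeR's quasi-likelihood test. Over all 18281 regions tested, 8.56% rose and 0.0875% fell, so the share of calls in the set was near the background. The median log2 fold change was 0.91 in the set, 0.99 over all tested regions and 1.09 before silent genes. With DESeq2 the set had 72 rises, all among the 132. When libraries were scaled to the summed reads of silent regions, which moved the median of all regions by -1.05 on the log2 scale, 1 region of the set rose and 22 fell. Under that scaling Ugt8a was the region that still rose. Without KO replicate 1 or KO replicate 2, 33 and 38 regions were called higher, and without WT replicate 1 the number was 356.

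The change depended on how many antisense reads a region had. Regions under 1.5 times the mean level of silent regions (936 tested) had a median log2 fold change of 0.96, beside 1.11 for silent regions in the same range. Those from 1.5 to under 3 times had 0.87 (n = 508), those from 3 to under 10 times had 0.64 (n = 147), and those at 10 times or more had -0.26 (n = 19). Of the 19 strongest, 14 had values below 0, 1 rose and 1 fell. The region that rose, Cep135 (a centriole protein), was named after its values were seen. It held 123 and 146 antisense reads in WT and 132 and 166 in KO, or 41.5 and 38.4 per 10M in WT and 72.2 and 80.4 in KO (log2 fold change 0.94 ± 0.19 SE, edgeR adjusted p = 0.0134). Silent regions from 1.5 to under 3 times had a median of 0.999 (n = 678), and those from 3 to under 10 times had 0.19 (n = 29). Silent regions at 10 times or more were 11, with a median of -0.34. Because the level was computed from the same 4 libraries as the change, this is a description.

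**Figure D4:**
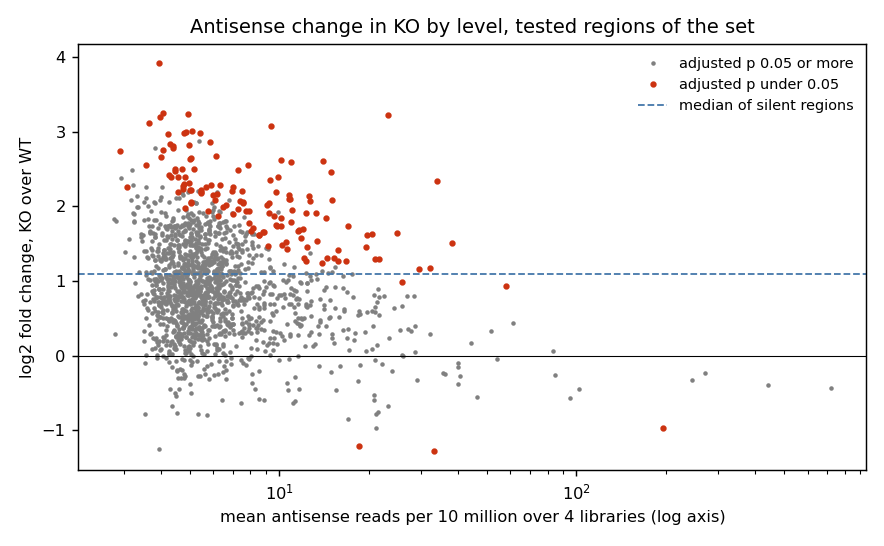
Each point is 1 of the 1610 tested regions, with its mean antisense reads per 10M over the 4 libraries (x axis, logarithmic) and its log2 fold change of KO over WT (y axis). Regions under 1.5 times the silent mean have a median of 0.96, next to the silent median of 1.09 (dashed), while most of those at the far right lie below 0.

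The 4 regions with the highest antisense level were each far above their sense strand and none passed the test of KO against WT. The region before Gm36617, a lincRNA gene (chr15:59272396-59275395), had 2329 and 3278 antisense reads in WT and 1301 and 1055 in KO, and 25 to 54 sense reads. Per 10M this was 786 and 862 in WT and 712 and 511 in KO (log2 fold change -0.43 ± 0.17 SE, edgeR adjusted p = 0.0891). Both KO libraries lay below both WT libraries. The region before Oxtr (chr6:112489944-112492943), whose first bases are shown above, had 929 and 1033 antisense reads in WT and 487 and 479 in KO, or 313 and 272 per 10M in WT and 266 and 232 in KO. Its log2 fold change was -0.23 ± 0.16 SE (adjusted p = 0.272), and its antisense-to-sense log2 ratio in WT was 5.70 ± 0.37 SE (adjusted p = 9.86e-16). Gm3787, a transcribed processed pseudogene, stood at 470 and 534 per 10M in WT and 394 and 366 in KO. Gm13817, a lincRNA gene, stood at 288 and 259 in WT and 243 and 193 in KO. In these 4 regions the KO values were lower without passing the test at gene-table scaling (adjusted p from 0.0797 to 0.272). All 4 were called lower when libraries were scaled to silent regions.

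The strand ratio in WT was most antisense-sided in the region before March3, a membrane-bound ubiquitin ligase gene, with a log2 ratio of 5.86 ± 0.42 SE. It held 339 and 433 antisense reads and 6 and 7 sense reads in WT, and 174 and 121 antisense and 11 and 9 sense reads in KO. The region before 4930520O04Rik, a processed transcript, followed with 5.80 ± 0.42. Gm36617 and Oxtr came next at 5.73 and 5.70. Of the 4 most antisense-sided regions, 2 precede protein-coding genes.

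The 3 regions that fell on the antisense strand were Gm5922, Rgcc and 4930520O04Rik. Before Rgcc, antisense reads were 86 and 87 in WT and 24 and 19 in KO, or 29.0 and 22.9 per 10M in WT and 13.1 and 9.20 in KO. The groups did not overlap, and the log2 fold change was -1.22 ± 0.32 SE (edgeR adjusted p = 0.0354, and 0.183 without KO replicate 2). The Rgcc gene itself did not pass the test (log2 fold change -0.07). Before Gm5922, a lincRNA gene, reads were 141 and 178 in WT and 30 and 46 in KO (log2 fold change -1.28 ± 0.24 SE, adjusted p = 0.00948), with the gene again at -0.01. Before 4930520O04Rik they were 729 and 1037 in WT and 251 and 263 in KO (-0.97 ± 0.16 SE, adjusted p = 0.00369), and here the gene fell as well (-0.51, adjusted p = 0.00297). These 3 regions were called lower under DESeq2 and under the other scalings too.

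The largest antisense rises among regions with at least 10 reads on average were seen before Gm14292, Ugt8a, Papss1 and Gm2810. Before Ugt8a (chr3:125938620-125941619), antisense reads were 25 and 4 in WT and 75 and 88 in KO, or 8.43 and 1.05 per 10M in WT and 41.0 and 42.6 in KO. The WT libraries differed from each other, and both KO libraries were far above them (log2 fold change 3.23 ± 0.49 SE, edgeR adjusted p = 0.00229). DESeq2 gave an adjusted p of 0.0734 for this region. Its sense reads were 18 and 14 in WT and 12 and 10 in KO, and the Ugt8a gene fell (-0.37, adjusted p = 0.00425). Before Papss1 (chr3:131561768-131564767), antisense reads were 9 and 4 in WT and 25 and 41 in KO (3.07 ± 0.53 SE, adjusted p = 0.00503). Sense reads there were 7 and 0 in WT and 17 and 16 in KO, so the strand ratio stayed near that of WT (change -0.04 on the log2 scale). The other pair are processed pseudogenes with few reads. Gm14292 had 4 and 2 antisense reads in WT and 23 and 11 in KO, and Gm2810 had 7 and 0 in WT and 16 and 19 in KO. At most this came to 12.6 per 10M, beside a silent level of 4.97 in KO. Gm14292 was not called without KO replicate 1 (adjusted p = 0.379), and Gm2810 was not called without WT replicate 2 or without either KO replicate (adjusted p from 0.0757 to 0.121). Scaled to silent regions, Papss1 was not called either (adjusted p = 0.0501).

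**Figure D5:**
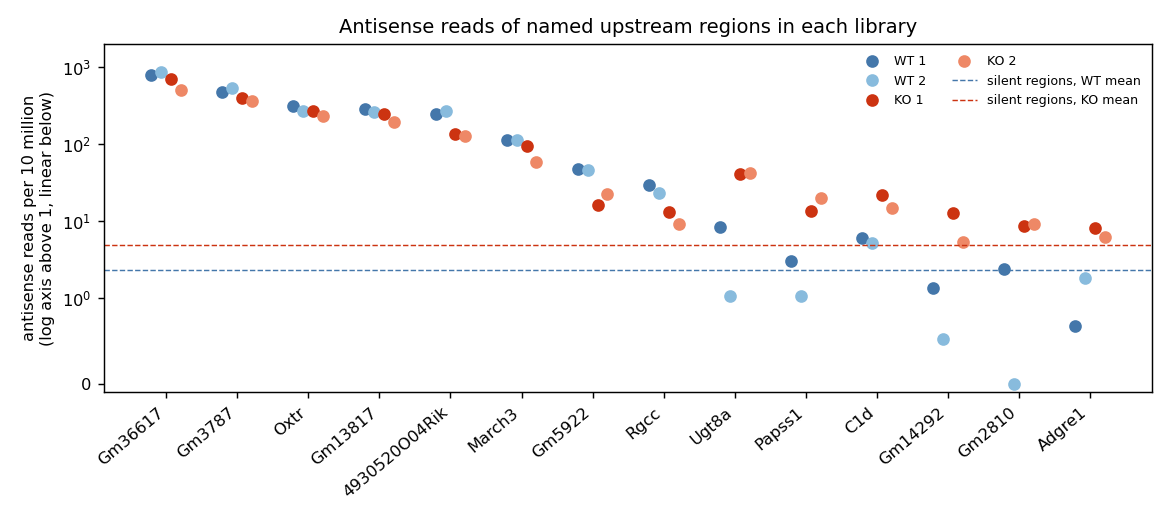
Points give antisense reads per 10M gene-table reads (y axis, logarithmic above 1 and linear below) in each library for 14 named regions, with dashed lines at the interquartile mean of silent regions in WT and KO. The strongest regions on the left have KO points at or below WT, Rgcc and Gm5922 have KO points lower, and Ugt8a, Papss1 and C1d have KO points higher.

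On the sense strand no region of the set passed the test. None of the 1526 tested rose or fell in edgeR, against 0.0166% higher and 0.0% lower over all 18087 regions tested, while 424 had an unadjusted p under 0.05, 409 of them higher. DESeq2 called 0 higher and 1 lower. The median log2 fold change was 0.81 in the set and 1.06 before silent genes. This absence of calls did not hold when a library was left out: 177 regions were called higher without WT replicate 1, 26 without WT replicate 2, and 3 and 1 without KO replicates 1 and 2. Scaled to silent regions, 24 fell and 0 rose.

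The regions with the highest sense level were Gm21221, a lincRNA gene, and the processed pseudogenes Gm21399, Gm11942 and Gm13453. Gm21221 (chr5:149811752-149814751) had 1848 and 2244 sense reads in WT and 956 and 907 in KO, against 14 to 25 antisense reads, and its log2 ratio in WT was -7.12 ± 0.38 SE. Per 10M, sense reads were 623 and 590 in WT and 523 and 439 in KO, with the KO libraries below WT (log2 fold change -0.33, edgeR adjusted p = 0.157). Gm21399 stood at 404 and 468 per 10M in WT and 412 and 343 in KO, with overlapping groups. Gm13453 stood at 284 and 297 in WT and 194 and 187 in KO, with no overlap (-0.61, adjusted p = 0.0926). Gm11942 stood at 304 and 291 in WT and 215 and 243 in KO. Gm21221, Gm21399 and Gm13453 were also the most sense-sided regions in WT, at log2 ratios of -7.12, -6.79 and -6.76.

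The antisense-to-sense ratio changed in KO in 2 of the 1933 tested regions, both upwards, against 0.0768% upwards and 0.00384% downwards of all 26039 tested, and 157 had an unadjusted p under 0.05. DESeq2 called 0. Among the edgeR calls, 4933423L19Rik, an unclassified transcript, had 176 and 167 sense reads in WT and 61 and 75 in KO, and 2 and 5 antisense reads in WT and 10 and 20 in KO (change 3.35 ± 0.68 SE on the log2 scale, edgeR adjusted p = 0.0354). Its antisense reads were under the silent 99th percentile in every library, and it was not called without WT replicate 1, KO replicate 1 or KO replicate 2. For Ugt8a the change was 3.20 ± 0.70 SE with an adjusted p of 0.0507. Over the set the median change was 0.04, beside 0.07 over all tested regions, 0.18 before genes with 1000 or more reads and 0.00 before silent genes.

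The own genes of the set moved in both directions. Of the 1956, 297 rose and 313 fell, against 11.6% and 20.3% of all 25076 genes tested, and nothing is read from this because WT reads of these genes chose the regions. With median-of-ratios scaling, which moved the median of all genes by -0.11, the split was 170 to 454. Antisense calls were spread over these groups. Of the tested regions before genes that rose, 17 of 239 (7.11%) rose on the antisense strand, beside 26 of 262 (9.92%) before genes that fell and 89 of 1109 (8.03%) before genes that did not pass. The median antisense log2 fold change was 0.96, 0.83 and 0.90 in these groups.

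Genes that act on upstream transcripts were examined in the gene table. Among exosome subunits and cofactors, 12 were tested, of which 6 fell and 0 rose: Dis3, the other nuclear nuclease Exosc10 (-0.40, adjusted p = 2.74e-05, edgeR), and the core subunits Exosc3 (-0.46), Exosc5 (-0.66), Exosc8 (-0.38) and Exosc9 (-0.39). Of 12 adaptor genes that bring RNA to the exosome, 7 fell, among them the helicase Mtrex (-0.34) and the cap-binding Ncbp1 (-0.57). Of 16 cleavage and polyadenylation genes 13 fell, and of 17 Integrator and restrictor genes 10 fell, with Ints10 lowest at -0.83. All 10 U1 snRNP protein genes fell, with a median of -0.35. No gene of these lists rose. Over all genes tested 20.3% fell. Among the 2160 own genes of isolated regions with WT reads above the chosen range, 42.7% fell and 11.6% rose, with a median of -0.13. The share that fell was thus higher among highly expressed genes. Whether the listed genes fell more often than genes of similar expression was not tested. Over all genes tested the median was 0.05, and the meiotic germ cell markers that fell in the same libraries had a median of -0.50. With median-of-ratios scaling all fold changes in the gene table shift by -0.11.

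Of the exosome list, C1d, a cofactor of the nuclear exosome, has its upstream region in the set. Antisense reads there were 18 and 20 in WT and 40 and 31 in KO, or 6.07 and 5.26 per 10M in WT and 21.9 and 15.0 in KO (1.70 ± 0.38 SE, edgeR adjusted p = 0.0215). The call was not made without KO replicate 1 (adjusted p = 0.223) or when scaled to silent regions (0.646), and the C1d gene did not pass the test (0.21). Among regions before cell type markers, the one before Adgre1, the macrophage marker F4/80, rose from 2 and 7 antisense reads in WT to 15 and 13 in KO (2.43 ± 0.67 SE, adjusted p = 0.0420), and its gene rose by 0.65. Its KO values were 8.21 and 6.29 per 10M, beside a silent level of 4.97 and 4.96. It was not called without KO replicate 1 or 2 (adjusted p = 0.319 and 0.185) or when scaled to silent regions (0.652). The complement gene C1qa had 3 and 11 antisense reads in WT and 18 and 15 in KO (adjusted p = 0.0527). Kdr, a VEGF receptor of endothelium, had 5 and 8 in WT and 15 and 10 in KO (0.0770). The other named regions of this kind did not pass the test: Sohlh1 and Ret of spermatogonia, Fshr of Sertoli cells, Lhcgr of Leydig cells, Des of peritubular myoid cells, Laptm5 of macrophages, and Vwf and Tek of endothelium, with log2 fold changes from -0.05 to 1.04. Before Sohlh1, a germline transcription factor gene, sense reads were 53 and 58 in WT and 20 and 44 in KO against 13 to 17 antisense reads in any library. Per 10M, its sense reads were 17.9 and 15.2 in WT and 10.9 and 21.3 in KO, with overlapping groups (log2 fold change -0.02). Before Fshr, the FSH receptor gene, sense reads were 39 and 41 in WT and 26 and 32 in KO against 6 to 16 antisense reads. Per 10M, its sense reads were 13.2 and 10.8 in WT and 14.2 and 15.5 in KO, not lower in KO (log2 fold change 0.32).

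At the limits of the choice, only the single nearest region on either side is given, which cannot show how values change across a limit. Gm9118, just inside at a mean of 100 WT reads, had 13 and 14 antisense reads in WT and 11 and 9 in KO. Tnfrsf11a, just outside at 99.5, had 13 and 10 in WT and 23 and 14 in KO. At the upper limit Plcl2, inside at 999.5, had 16 and 21 in WT and 14 and 21 in KO, and Tamm41, outside at 1000, had 13 and 7 in WT and 7 and 8 in KO.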

How the data were processed

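Testis RNA of 2 WT and 2 KO libraries was analysed, grouped by sample title. The values are raw read counts that the authors made with featureCounts 1.6.4, per the file headers: GENCODE M18 genes on the gene's strand, and regions of 3000 bases upstream on either strand. Among tools and builds, cutadapt, HISAT2 and GRCm38.p5 appear in the submitters' processing notes. Options for multi-mapping reads do not appear in the recorded gene command, so genes with near-identical copies, processed pseudogenes among them, are uncertain. Of the 30166 regions in both tables, 811 had no matching row in the gene table and were not used here.

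Whole tables were fitted in R 4.3.3 by edgeR 4.0.16 (quasi-likelihood, robust, filterByExpr, genotype as the single term, Benjamini-Hochberg over all features, threshold 0.05). Library sizes and TMM factors came from the gene table, also for the upstream tables. Strands were compared in 1 fit of 8 columns with library as a block. Levels are interquartile means minus those of isolated regions of genes under 10 WT reads, tested by exact permutation of 2 against 2 libraries or exact sign flips over 4 libraries. SE is the log2 fold change divided by the root of the quasi-likelihood F. The edgeR steps were checked on simulated counts that held no shift shared by all regions. That check does not cover the choice of scaling.

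Named regions were the 4 with the highest level per strand, up to 4 largest called rises and falls per strand with at least 10 reads on average, up to 4 called strand ratios each way in WT and up to 3 each way for the change in KO, up to 3 per gene list, and those nearest the limits. Regions and lists were chosen with earlier results of these data known. Splits by expression, distance, gene class and promoter, and the strand difference, were added after the counts were seen. Counting intervals are not given for single regions, since reads without molecular identifiers are not independent molecules. Alternatives were DESeq2 1.42.0, other scalings, no filter, 20 kb isolation, other backgrounds and summaries, each library left out, and a replicate block. A region that the rule for named regions picked is not reported here.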

Additional observations from a re-analysis of the deposited data

How the results depend on the processing

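Regions called higher in KO on the antisense strand (132) numbered 72 with DESeq2, 79 with median-of-ratios scaling, 229 with no filter, 87 with the next gene over 20 kb away, 1 when scaled to silent regions and 3 when scaled on the upstream table itself, and 33 to 356 with 1 library left out. Lower calls (3) became 6 with no filter, 22 and 27 under the same pair of scalings, and 3 to 8 with 1 library left out. On the sense strand (0 and 0), no filter gave 67 higher and 6 lower, DESeq2 1 lower, scaling to silent regions 24 lower, scaling on the upstream table itself gave 20 lower, and leaving out 1 library 1 to 177 higher and 1 to 4 lower. The strand calls in WT (136 and 86) were 81 and 53 with the next gene over 20 kb away, a smaller set of regions. The change of strand ratio (2 higher, 0 lower) gave 0 higher with DESeq2, 5 higher and 1 lower with no filter, and 0 to 10 higher and 0 to 4 lower with 1 library left out. Own genes (297 higher, 313 lower) gave 129 and 178 with DESeq2 and 170 higher with median-of-ratios scaling, and 177 to 195 higher with 1 library left out. The excess ratio of KO to WT turned from 1.52 to 0.76 (antisense) and from 1.30 to 0.65 (sense) when scaled to silent regions, and to 0.93 (sense) with the plain mean. Apart from the settings whose construction shows it, the cause was not tested.

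Deviations from the group means did not correlate between libraries of the same replicate number (-0.0075 over genes). With 1 such pair of differences this cannot decide whether the libraries were paired, which the sample labels do not state. With a replicate block the counts were 217 higher and 5 lower antisense, 89 higher and 7 lower sense, and 5 higher and 1 lower for the change of strand ratio. Scaling to silent regions for the levels, silent protein-coding genes as background, the later annotation, abutting regions and protein-coding own genes were alternatives chosen after seeing the data. Where 1 library was left out, the lone library of its group is assumed to vary like the other group. With 2 libraries a group no exact permutation p can fall under 0.333, and at 12 reads in a typical region single regions have low precision.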
